A study of Mus musculus with 8 samples.

Results

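The genes described here are *P2ry12* and 9 further genes that macrophages express, *Cx3cr1*, *Csf1r*, *Adgre1*, *Cd68*, *Mrc1*, *Tyrobp*, *Trem2*, *C1qa* and *C1qb*, which make up 10 of the 12148 genes in the table. They were taken by symbol, through the Ensembl identifiers of the table, and all 10 were present. *P2ry12* was picked by its log2 difference between the genotypes of these same 8 libraries, so its values are given as a description with no test. The other 9 were taken to ask whether macrophage genes in general follow it. The libraries were made from dental pulp of the mandibular first molars (M1s) of C57BL/6J mice at postnatal day 7 (P7), left and right M1s combined. All mice carried Osterix-Cre, a recombinase under the promoter of Osterix, a factor of dental mesenchyme and odontoblasts. The 4 Osterix-Cre controls (libraries 49 to 52) are labelled with Osterix-Cre alone, and the 4 *Tgfbr2cko* mutants (Osterix-Cre:Tgfbr2f/f, libraries 53 to 56) also carried *Tgfbr2* flanked by loxP sites. Males and females were used in equal numbers, per the methods, and each library is treated as 1 replicate.

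Macrophages arise from the haematopoietic lineage and lie in the pulp as resident phagocytes among fibroblasts, vessels and nerve fibres. The promoter that drives deletion thus belongs to another lineage than the one whose transcripts are followed here. *P2ry12* encodes a receptor for ADP that is best known from resting microglia of the brain, where TGF-beta signalling is needed to keep it expressed, and from platelets. The other genes cover the tasks of a macrophage: receptors for growth and positioning signals (*Csf1r*, *Cx3cr1*), surface and lysosomal proteins used to recognise the cells (*Adgre1*, the F4/80 antigen, and *Cd68*), the mannose receptor of resident and scavenging macrophages (*Mrc1*), a lipid-sensing receptor with the adaptor through which it signals (*Trem2*, *Tyrobp*), and subunits of the complement component C1q (*C1qa*, *C1qb*).

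Promoter windows of 250 bases before the gene start (RefSeq, GRCm38.p6) were held for 6 of the 10 genes. Those of *P2ry12* and *Trem2*, the genes with the highest differences, and of *Mrc1*, the gene with the lowest, are shown in the direction of transcription. Capitals mark each match, on either strand, to GAGGAA, a core bound by the macrophage factor PU.1, to its longer form GAGGAAG, and to CAGAC, a core bound by the Smad proteins that carry TGF-beta signals. Every GAGGAAG match also counts as a GAGGAA match.
P2ry12: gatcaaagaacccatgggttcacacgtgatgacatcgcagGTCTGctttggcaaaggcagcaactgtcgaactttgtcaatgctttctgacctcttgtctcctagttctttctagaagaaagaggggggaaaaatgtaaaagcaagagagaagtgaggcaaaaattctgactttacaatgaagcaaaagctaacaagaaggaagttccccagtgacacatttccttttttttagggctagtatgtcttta
Trem2: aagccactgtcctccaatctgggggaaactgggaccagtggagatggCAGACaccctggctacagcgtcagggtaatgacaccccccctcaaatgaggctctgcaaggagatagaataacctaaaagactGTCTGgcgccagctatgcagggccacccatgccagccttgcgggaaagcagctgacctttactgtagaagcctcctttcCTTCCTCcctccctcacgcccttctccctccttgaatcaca
Mrc1: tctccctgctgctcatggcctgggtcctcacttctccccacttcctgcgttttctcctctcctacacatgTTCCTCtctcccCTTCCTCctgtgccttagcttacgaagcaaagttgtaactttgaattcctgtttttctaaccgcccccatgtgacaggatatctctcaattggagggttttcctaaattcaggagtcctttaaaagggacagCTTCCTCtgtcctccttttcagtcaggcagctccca
The *P2ry12* window (chr3:59262986-59263235, minus strand) held CAGAC 1 time and GAGGAA 0 times. The *Trem2* window (chr17:48346151-48346400, plus strand) held CAGAC 2 times and GAGGAA 1 time, as GAGGAAG. In the *Mrc1* window (chr2:14229164-14229413, plus strand) GAGGAA occurred 3 times, 2 of them as GAGGAAG, and CAGAC 0 times. Of the 32851 promoter windows of this length, 23.3% held GAGGAA, 10.6% held GAGGAAG and 42.2% held CAGAC, so each of these matches is common. The *Cx3cr1* window held CAGAC 1 time, the *Cd68* window held CAGAC 1 time and GAGGAA 1 time, and the *C1qb* window held GAGGAA 1 time. A match of letters is not a measured binding site, and 0 matches to these letters do not show that a factor is not bound there.

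Values are log2 CPM, the log2 of counts scaled to the library total (CPM) with 0.5 added to each count, and a difference is the mutant mean minus the control mean on that scale. The totals ran from 8682872 to 13539670 reads, so that 3 reads correspond to between 0.222 and 0.346 CPM. The least abundant of the 10 genes in any library still had 70 reads. A gene is called altered here where limma-trend gives an unadjusted p under 0.05 with 1.5-fold or more between the means, and adjusted p values (Benjamini-Hochberg) are over all 12148 genes. Some counts are also given at an unadjusted p under 0.05 alone, for which the share of all genes was not computed. The last mutant library, 56, stood apart. The enamel transcripts *Amelx* and *Ambn* took 18.5% of its reads against 0.326% to 2.74% in the other 7, although the enamel organ was to be removed, per the methods. The part of this library's enamel share in the results was not tested. It was also the lowest of the 8 libraries for 8 of the 10 macrophage genes, and the differences of the members are also given without it. *Tgfbr2* itself stood at 7.16, 7.62, 7.64 and 7.52 against 7.02, 7.00, 7.16 and 7.61 in the mutants (difference -0.29, limma-trend adjusted p = 0.79, exact permutation p = 0.143). The count covers the whole gene and all cells of the pulp, so it checks the deletion weakly. The last value lies inside the control range and the one before it is level with the lowest control, so these are written as the libraries labelled *Tgfbr2cko* 55 and 56. In whole pulp, fewer macrophages and less RNA per macrophage cannot be told apart.

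*P2ry12* (ENSMUSG00000036353.13, GRCm38 chr3:59216272-59262871, minus strand) stood at 3.24, 3.34, 3.33 and 2.79 in control libraries 49 to 52, against 5.65, 5.13, 5.28 and 4.87 in mutant libraries 53 to 56. In reads, that is 92, 97, 95 and 70 against 446, 429, 336 and 395. Even the lowest mutant, the library labelled *Tgfbr2cko* 56, lay well above the highest control, and the genotypes did not overlap. The means were 3.17 ± 0.26 and 5.23 ± 0.33 (SD, n = 4 each), a difference of 2.06 or 4.17-fold, and without the library labelled *Tgfbr2cko* 56 the difference was 2.18. The gene lies inside *Med12l*, which is read from the opposite strand and shares 9 exon bases (0.353%) with it. *Med12l* had 60 to 111 reads per library and a difference of 0.05 (limma-trend adjusted p = 0.998).

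**Figure D1:**
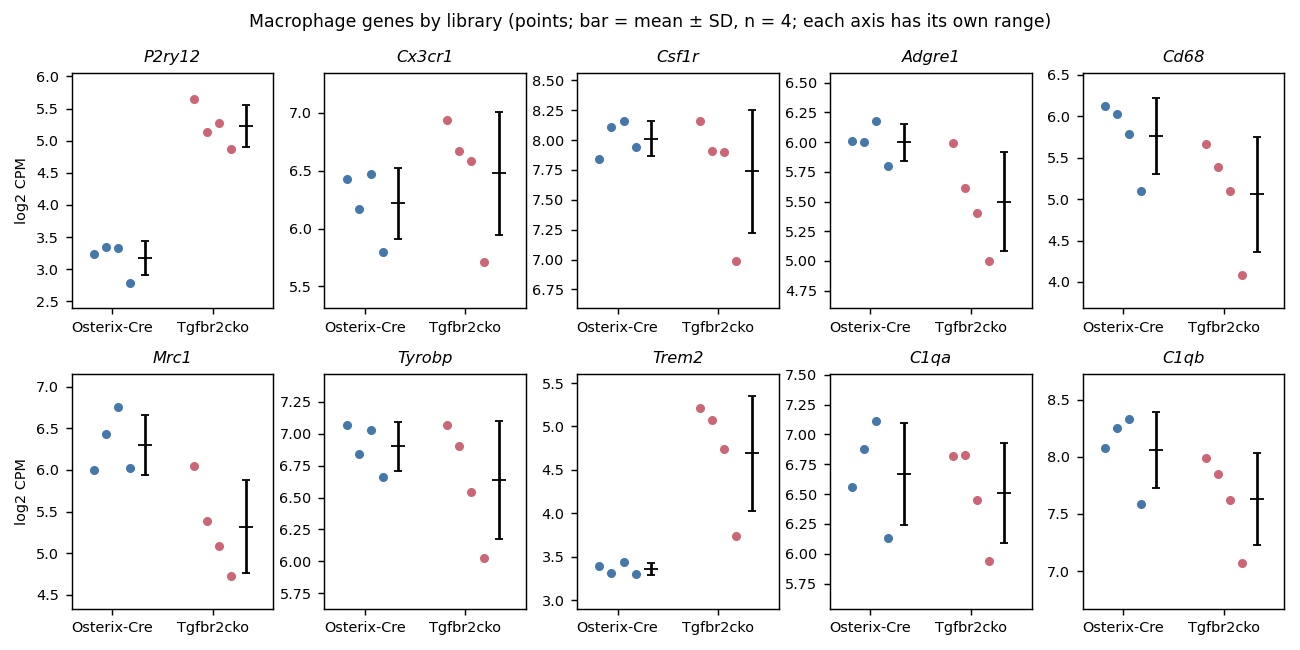
Log2 CPM (y axis, a separate range in each panel) of the 10 macrophage genes in the 4 Osterix-Cre and 4 Tgfbr2cko libraries, in the order 49 to 52 and 53 to 56 from left to right; the bar gives the mean and SD. The points of P2ry12 and Trem2 do not overlap between genotypes, those of the other 8 genes do, and the last mutant point (the library labelled Tgfbr2cko 56) is the lowest mutant point in every panel.

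Among the other 9 genes, 1 rose (*Trem2*), 2 fell (*Cd68* and *Mrc1*) and 6 were not called altered. Over all genes, 2.12% were called higher and 3.65% lower, 5.77% in all. At an adjusted p under 0.05 in limma-trend, 1 of the 9 was higher and 0 were lower, beside 0.247% and 0.7% of all genes, or 0.947% in both directions. At an unadjusted p under 0.05 alone, 3 were lower. The median difference of the 9 was -0.27, against -0.01 over all genes, and without the library labelled *Tgfbr2cko* 56 it was -0.06, against 0.07 over all genes. *Trem2* was the only one of the 9 whose genotypes did not overlap, which was the case for 5.27% of all genes, 2.13% higher and 3.14% lower. At the threshold used, 1 of the 9 genes rose along with *P2ry12*. Set against the mean of the 9 in the same library, *P2ry12* was nearer to it in every mutant than in any control. The log2 value of *P2ry12* minus that mean was -3.15, -3.11, -3.26 and -3.25 log2 units in the controls, against a range of -1.27 to -0.61 in the mutants. As *P2ry12* was picked for its rise in these libraries, these values describe that choice and test nothing.

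**Figure D2:**
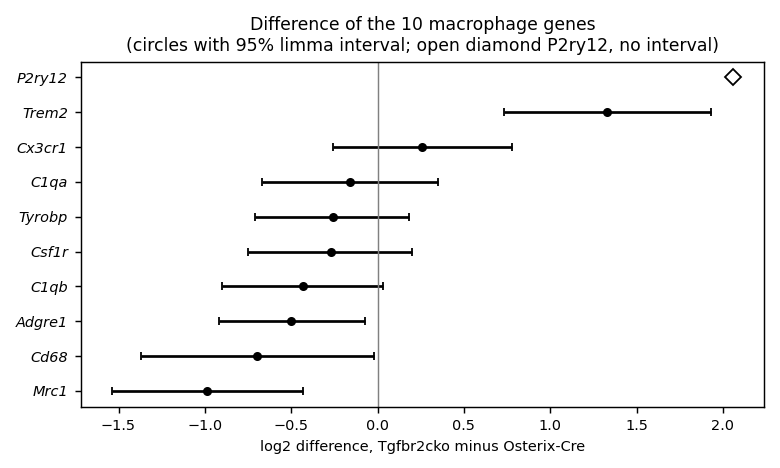
Difference between genotypes (x axis, log2 CPM, Tgfbr2cko minus Osterix-Cre) for the 10 macrophage genes, ordered by size; circles carry the 95% limma-trend interval and the open diamond is P2ry12, shown without one. The interval of Trem2 lies above 0, those of Adgre1, Cd68 and Mrc1 lie below 0, and those of the other 5 circles include 0.

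*Trem2* (ENSMUSG00000023992.14, chr17:48346401-48354147, plus strand), the receptor for lipids and apolipoproteins, was the gene nearest to *P2ry12* among the 9. Its values were 3.39, 3.31, 3.44 and 3.30 in the controls, against 5.21, 5.07, 4.74 and 3.74 in the mutants, or 102, 95, 103 and 100 reads against 329, 411, 232 and 181. The controls lay close together (SD 0.07), while the mutants spread more widely (SD 0.66), with the library labelled *Tgfbr2cko* 56 lowest. The difference was 1.33 (standard error 0.28, 95% interval 0.73 to 1.93), or 2.52-fold (limma-trend p = 0.000344, adjusted p = 0.0391, exact permutation p = 0.0286). With 70 arrangements of 4 against 4, that exact p is the smallest possible. Without the library labelled *Tgfbr2cko* 56 the difference was 1.65, with an adjusted p of 0.000592. Over the 19 alternatives the adjusted p of limma ran from 0.000592 to 0.128 and was under 0.05 in 10, while the unadjusted p was under 0.05 in all 19.

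*Tyrobp* (chr7:30413760-30417585, plus strand) encodes DAP12, the adaptor that passes on the signal of TREM2 and of several other receptors. It was not called altered. The controls had 7.07, 6.84, 7.03 and 6.66, against 7.07, 6.90, 6.54 and 6.03 in the mutants. The genotypes overlapped, and the difference was -0.26 (95% interval -0.71 to 0.18, limma-trend p = 0.226, exact permutation p = 0.371), or -0.06 without the library labelled *Tgfbr2cko* 56. The upper bound of this interval corresponds to 1.14-fold, and the lower bound of *Trem2* to 1.66-fold. The difference between the changes of the receptor and its adaptor was not tested.

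The receptors for growth and positioning signals were not called altered. *Cx3cr1* (chr9:119901616-120069879, minus strand), the receptor for the membrane-bound chemokine fractalkine, had 6.43, 6.17, 6.47 and 5.80 in the controls, against 6.94, 6.67, 6.58 and 5.71 in the mutants. Of the mutants, 3 lay above every control and the library labelled *Tgfbr2cko* 56 lay below every control. The difference was 0.26 (95% interval -0.26 to 0.78, limma-trend p = 0.306, exact permutation p = 0.371). Without the library labelled *Tgfbr2cko* 56 it was 0.51 (limma-trend adjusted p = 0.282), which is under 1.5-fold, while it was 0.12 without control library 52 and 0.10 without mutant library 53. *Csf1r* (chr18:61100598-61132149, plus strand), the receptor for the growth factors CSF1 and IL-34 on which macrophage survival depends, ranged from 7.84 to 8.16 in the controls. Its mutant values were 8.16, 7.91, 7.90 and 6.99, so that 3 of the 4 lay among the controls. The difference was -0.27 (95% interval -0.75 to 0.20, limma-trend p = 0.237, exact permutation p = 0.514), and without the library labelled *Tgfbr2cko* 56 it was -0.02. Exons of *Hmgxb3*, on the opposite strand, cover 15.1% of the exon bases of *Csf1r*.

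Ligands of these receptors come mainly from cells other than macrophages. *Cx3cl1*, which encodes fractalkine, fell by 1.28 on the log2 scale (limma-trend adjusted p = 0.22). Its values were 5.65, 5.88, 5.71 and 5.93 in the controls, against 5.43, 4.98, 4.69 and 2.93 in the mutants, with no overlap. The library labelled *Tgfbr2cko* 56 was again the lowest, and without it the difference was -0.76. *Csf1* differed by -0.34 (limma-trend adjusted p = 0.828). *Il34* was not analysed here.

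Of the proteins used to recognise macrophages, *Cd68* (chr11:69664213-69666153, minus strand), a glycoprotein of lysosomes and endosomes, had 6.12, 6.03, 5.79 and 5.10 in the controls, against 5.67, 5.39, 5.10 and 4.08 in the mutants. The genotypes overlapped. It fell by 0.70 on the log2 scale (95% interval -1.37 to -0.02, limma-trend p = 0.0434, adjusted p = 0.564, exact permutation p = 0.114). Its unadjusted p was under 0.05 in 10 of 19 alternatives, and without the library labelled *Tgfbr2cko* 56 the difference was -0.37 (limma-trend adjusted p = 0.733). *Adgre1* (chr17:57358691-57483527, plus strand), an adhesion receptor, had 631, 619, 691 and 569 reads in the controls, against 565, 601, 367 and 433 in the mutants. The mean log2 CPM was 6.00 ± 0.16 and 5.50 ± 0.41 (SD, n = 4 each), with an overlap between the genotypes through library 53. The difference was -0.50, or 0.709-fold (limma-trend p = 0.0255, adjusted p = 0.434, exact permutation p = 0.0571), which is less than the 1.5-fold needed for a call. The difference was -0.33 without the library labelled *Tgfbr2cko* 56 (limma-trend adjusted p = 0.599) and the unadjusted p was then not under 0.05. Its unadjusted p was under 0.05 in 13 of 19 alternatives.

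*Mrc1* (ENSMUSG00000026712.3, chr2:14229392-14332057, plus strand), the mannose receptor CD206, fell in the mutants. The control values were 6.00, 6.43, 6.76 and 6.02, against mutant values of 6.05, 5.39, 5.09 and 4.73. Library 53 reached the lowest controls, and the other 3 mutants lay below every control. The difference was -0.99 (95% interval -1.54 to -0.43, limma-trend p = 0.00214, adjusted p = 0.118, exact permutation p = 0.0857), or 0.505-fold. Its unadjusted p was under 0.05 in all 19 alternatives, and without the library labelled *Tgfbr2cko* 56 the difference was -0.79.

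The complement genes were not called altered. *C1qb* (chr4:136880129-136886187, minus strand) had 8.08, 8.25, 8.33 and 7.59 in the controls, against 7.99, 7.85, 7.62 and 7.07 in the mutants, a difference of -0.43 (95% interval -0.90 to 0.03, limma-trend p = 0.0659, exact permutation p = 0.143). *C1qa* (chr4:136895917-136898803, minus strand) had 6.56, 6.88, 7.11 and 6.13 against 6.82, 6.83, 6.45 and 5.94, a difference of -0.16 (95% interval -0.67 to 0.35, limma-trend p = 0.509, exact permutation p = 0.600). In both genes control library 52 and the library labelled *Tgfbr2cko* 56 were the lowest of their genotype, and without the latter the difference was -0.25 for *C1qb* and 0.03 for *C1qa*. *C1qc*, the third subunit of C1q and the neighbour of both, differed by -0.41 (limma-trend adjusted p = 0.726).

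Per length of exon, *C1qb* had the highest level of the 10 genes and *Trem2* the lowest in both genotypes. In the controls the geometric means were 246 CPM per kb for *C1qb*, 179 for *Tyrobp*, 97.8 for *C1qa*, 44.8 for *Csf1r*, 43.1 for *Cd68*, 19.8 for *Adgre1*, 16.5 for *Cx3cr1*, 12.4 for *Mrc1*, 3.54 for *P2ry12* and 2.07 for *Trem2*. The ranges of *C1qb* and *Tyrobp*, of *Csf1r* and *Cd68*, of *Adgre1* and *Cx3cr1*, and of *Cx3cr1* and *Mrc1* overlapped, while *P2ry12* lay below *Mrc1* and above *Trem2* with no overlap of the ranges. In the mutants *P2ry12* stood 7th, at 14.8 CPM per kb, between *Cx3cr1* at 19.7 and *Adgre1* at 14. It exceeded *Adgre1* in 3 of 4 mutant libraries with overlapping ranges, and *Mrc1*, at 6.26 CPM per kb, stood 9th. *Trem2* was still last, at 5.23 CPM per kb, but its range now overlapped that of *Mrc1*.

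Because most of the 10 genes were lowest in the library labelled *Tgfbr2cko* 56, the reads were also set against those of *Csf1r* in the same library, a scaling chosen after the data were seen. It gives each gene relative to 1 macrophage gene, and it moves the median of all genes by 0.27. Per 100 *Csf1r* reads, the controls had 4.11, 3.63, 3.48 and 2.78 *P2ry12* reads, against 17.5, 14.5, 16.2 and 22.9 in the mutants. On this scale the library labelled *Tgfbr2cko* 56 was the highest of the mutants for *P2ry12*. The *Trem2* reads were 4.55, 3.56, 3.78 and 3.97 in the controls, against 12.9, 13.9, 11.2 and 10.5 in the mutants, or 3.97 ± 0.428 against 12.1 ± 1.55 (SD, n = 4 each). *Cx3cr1* had 37.7, 26.1, 30.9 and 22.7 reads per 100 *Csf1r* reads in the controls, against 42.6, 42.4, 40 and 41.1 in the mutants, and the genotypes no longer overlapped. The difference of *Cx3cr1* on this scale was 0.53 (limma-trend adjusted p = 0.471), of which 0.27 is the shift of all genes. *Mrc1* had 28, 31.1, 37.7 and 26.4 against 23.1, 17.4, 14.3 and 20.9, also without overlap, a difference of -0.71 (limma-trend adjusted p = 0.281). *Tyrobp* stood at 46.7 ± 8.29 and 46.7 ± 5.46 reads per 100 *Csf1r* reads (SD, n = 4 each), and *C1qa* at 40.1 ± 8.36 and 42.8 ± 5.71. On this scale 2 of the 8 genes other than *P2ry12* and *Csf1r* lay higher and 1 lower without overlap, beside 5.24% and 1.14% of all genes. Called altered were 1 higher (*Trem2*) and 1 lower (*Mrc1*), beside 6.35% and 1.59% of all genes.

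**Figure D3:**
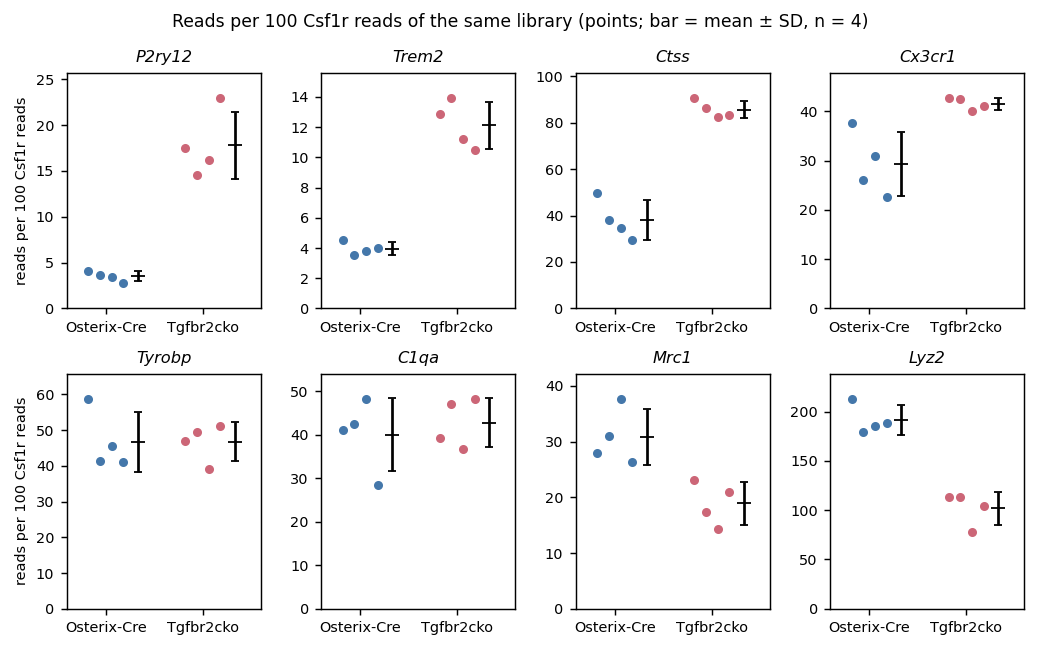
Reads per 100 Csf1r reads of the same library (y axis from 0, a separate range in each panel) for 8 genes in the 4 Osterix-Cre and 4 Tgfbr2cko libraries, with mean and SD. P2ry12, Trem2, Ctss and Cx3cr1 lie higher and Mrc1 and Lyz2 lower in every mutant than in any control, while Tyrobp and C1qa overlap.

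The same question was put to 30 further genes of macrophages and other myeloid cells, all 30 of them measured. Of these, 2 rose, 7 fell and 21 were not called altered, with a median difference of -0.37, beside 2.12% of all genes called higher and 3.65% lower. This median depended on the setting: it was -0.18 with a covariate for enamel matrix transcripts, -0.10 relative to *Csf1r*, and 0.01 without the 3 libraries highest in enamel transcripts (49, 55 and 56). The genes that rose were *Ctss*, the protease cathepsin S, by 0.92 (limma-trend adjusted p = 0.118), and *Mpeg1*, the pore-forming protein perforin-2, by 0.62 (adjusted p = 0.229). *Ctss* reads per 100 *Csf1r* reads were 49.7, 37.9, 34.8 and 29.6 in the controls, against 90.4, 86.1, 82.4 and 83.3 in the mutants. The 7 that fell were the IgG receptors *Fcgr2b* (-1.68, limma adjusted p = 0.0119) and *Fcgr3* (-0.77), their signalling chain *Fcer1g* (-0.81), the lysozyme gene *Lyz2* (-1.19, limma adjusted p = 0.028), the complement C5a receptor *C5ar1* (-2.00), the pan-leukocyte phosphatase *Ptprc* (-0.96) and *Lst1* (-0.87). *Fcgr2b* and *Fcgr3* are near-identical in their extracellular part, and *Lyz2* has the close copy *Lyz1*, so the split of reads between such pairs is uncertain. *Fcer1g* had an unadjusted p under 0.05 in 13 of 19 alternatives. Without the library labelled *Tgfbr2cko* 56, 2 rose and 5 fell, with a median of -0.16. The count that fell was 12 without mutant library 53, and the count that rose was 1 without control library 50 or without the library labelled *Tgfbr2cko* 55. *Spi1*, which encodes PU.1, differed by -0.46 (limma-trend adjusted p = 0.756), and *Irf8*, its partner, by 0.04.

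Genes known from homeostatic microglia, the cells for which *P2ry12* is a marker, had the highest median among the macrophage lists, 0.53 over 11 of 13 genes measured. Of the 11, 5 rose, 1 fell and 5 were not called altered, beside 2.12% of all genes higher and 3.65% lower. The count that rose was 5 to 7 and the median 0.42 to 0.80 over the 19 alternatives. *P2ry13*, a related ADP receptor that lies beside *P2ry12* on chromosome 3 (59207892 to 59210882) inside the same gene *Med12l*, had 2.91, 3.13, 3.56 and 3.52 in the controls, against 4.43, 4.48, 4.74 and 3.82 in the mutants, a difference of 1.09 (limma-trend adjusted p = 0.0547). *Selplg*, a ligand of selectins, rose by 1.16 (adjusted p = 0.0406 in limma-trend), the oxysterol receptor *Gpr183* by 1.11 (adjusted p = 0.0192) and the lysophosphatidylserine receptor *Gpr34* by 0.98 (adjusted p = 0.081). *Olfml3*, a secreted protein, fell by 0.91 (limma-trend adjusted p = 0.0709). It had 3069 to 7821 reads per library, against 1723 to 2958 for *Csf1r*, and the part of other pulp cells in its reads was not tested. *Tmem119*, which cells of the osteoblast lineage express as well, differed by 0.45 (limma-trend adjusted p = 0.253), under 1.5-fold, and *Sall1* by 0.26. The 4 named genes that rose were also higher, and *Olfml3* lower, without the library labelled *Tgfbr2cko* 56, with a median of 0.57. The count of falls was 2 without control library 52 or without mutant library 53.

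Markers of perivascular and other tissue-resident macrophages, the group in which *Mrc1* is usually placed, had a median of -0.70 over 9 of 15 genes measured. Of these 9, 0 rose and 4 fell in limma-trend, beside 2.12% of all genes called higher and 3.65% lower. At an unadjusted p under 0.05 alone, 0 were higher. *F13a1*, coagulation factor XIII A, fell from 5.68, 6.48, 6.52 and 6.32 to 5.52, 4.82, 4.46 and 4.03 (difference -1.55, limma-trend adjusted p = 0.0192), with no overlap. The scavenger receptor *Stab1* fell by 0.70, the chemokine *Pf4* by 1.19 and the carbonyl reductase *Cbr2* by 1.13, with limma-trend adjusted p values from 0.104 to 0.159. The difference of *Pf4* ran from -1.54 to -0.46 over the 19 alternatives, and it was not called without the 3 libraries highest in enamel transcripts. *Lyve1*, a hyaluronan receptor, was not called altered, at 3.49 to 4.61 in the controls and 2.06 to 5.25 in the mutants. Without the library labelled *Tgfbr2cko* 56, 3 of the 9 were lower, with a median of -0.52. Without the library labelled *Tgfbr2cko* 55 the median was -0.32 and without library 53 it was -1.21, with 4 and 5 genes lower. It was -0.34 with the enamel covariate, -0.38 without the 3 libraries highest in enamel transcripts and -0.43 relative to *Csf1r*, with 3 or 4 genes lower.

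Genes of antigen presentation by MHC class II had a median of -0.85 over 6 of 8 measured. In limma-trend 4 were called lower and 0 higher, beside 3.65% of all genes called lower and 2.12% higher. The counts at an unadjusted p under 0.05 alone were also 4 and 0. *Cd74*, the invariant chain, fell from 5.75, 5.40, 4.59 and 4.42 to 3.05, 2.62, 2.26 and 3.40 (difference -2.21, limma-trend adjusted p = 0.00444), and here the library labelled *Tgfbr2cko* 56 was the highest mutant. The MHC class II chains *H2-Ab1* (-0.90) and *H2-Eb1* (-0.90) and the costimulatory protein *Cd86* (-0.80) had limma-trend adjusted p values from 0.236 to 0.423. The unadjusted p was under 0.05 in 10 of 19 alternatives for *H2-Ab1* and in 11 of 18 for *H2-Eb1*, which the filter on the mean log2 value leaves out. The count of 4 rested in part on single libraries, with 2 genes lower without control library 49 or 50, and 1 without the library labelled *Tgfbr2cko* 56. It was 2 with the enamel covariate, 1 relative to *Csf1r*, and 1 without the 3 libraries highest in enamel transcripts, where 1 gene was higher. Genes that are usually found with *Trem2* in lipid-handling macrophages were looked at next. Of 8 of 13 measured, 0 were called in limma-trend and 1 had an unadjusted p under 0.05 (*Axl*, -0.40), with a median of 0.12, and *Apoe*, a ligand of TREM2, differed by 0.11 (limma-trend adjusted p = 0.998). *Gpnmb*, *Spp1*, *Itgax*, *Cst7* and *Clec7a* were not among the genes analysed here. Levels of the others ran from *Lpl*, at 30 to 327 reads per library, to *Apoe*, at 17202 to 37363, against 95 to 411 for *Trem2*. The part of other pulp cells in these reads was not tested. In this list 1 gene was called higher with library weights, with libraries of the same title number averaged, and without control library 49 or mutant library 53, and 2 relative to *Csf1r*.

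**Figure D4:**
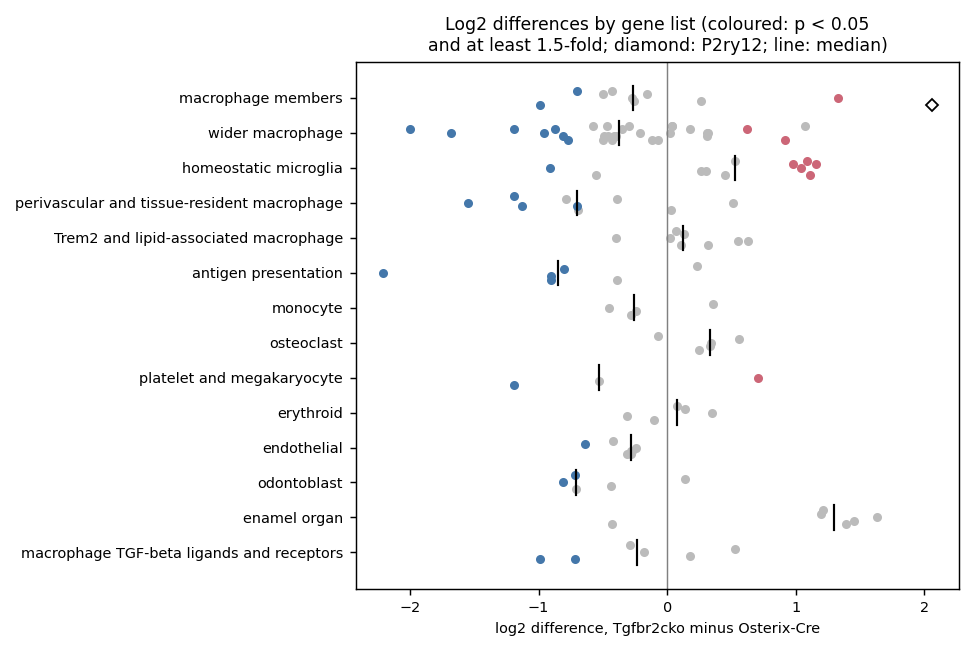
Difference between genotypes (x axis, log2 CPM, Tgfbr2cko minus Osterix-Cre) for each measured gene of the lists with at least 3 measured genes; coloured points are called altered, grey points are not, the diamond is P2ry12 and the vertical line is the median of the list. The homeostatic microglia list has its median at 0.53, the perivascular list at -0.70 and the antigen presentation list at -0.85.

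TGF-beta ligands and receptors that macrophages use were looked at beside these lists. *Nrros*, which holds latent TGF-beta on the surface of microglia and other myeloid cells, fell from 5.67, 5.71, 5.71 and 5.58 to 5.17, 4.81, 4.61 and 4.11 (difference -0.99, limma-trend adjusted p = 0.0354), with no overlap. *Tgfb1* fell by 0.72 (limma-trend adjusted p = 0.179). The receptor gene *Tgfbr1* differed by 0.53 (limma-trend adjusted p = 0.217), under 1.5-fold. Of the 6 genes, 2 fell, 0 rose and 4 were not called altered, beside 2.12% of all genes higher and 3.65% lower, and *Tgfbr1* was the 1 gene that was higher at an unadjusted p under 0.05 alone. In this list 1 gene was called higher without control library 51 or 52, and 1 higher and 1 lower relative to *Csf1r*.

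Other cells that express *P2ry12* or myeloid genes were checked by their markers, and the part they have in the differences was not tested. Of the platelet and megakaryocyte markers 3 of 8 were measured. Their summed level was 107 to 204 CPM in the controls and 45.8 to 145 CPM in the mutants, and *Itga2b* differed by -0.53 (limma-trend adjusted p = 0.656). *Pf4*, which resident macrophages also express, fell, and the ADP receptor *P2ry1* rose by 0.71 (limma-trend adjusted p = 0.259). *Ppbp*, *Gp1ba*, *Gp9*, *Gp6* and *Treml1* were not among the genes analysed here. Monocyte markers (4 of 8 measured, 754 to 869 CPM against 521 to 913 CPM) and osteoclast markers (5 of 10, 263 to 316 CPM against 251 to 474 CPM) had 0 calls in limma-trend, beside 5.77% of all genes called in either direction, so that lists of this size can hold 0 at that share. At an unadjusted p under 0.05 alone these lists also had 0. Relative to *Csf1r*, where 6.35% of all genes were called higher, 1 monocyte and 2 osteoclast markers were, and without the 3 libraries highest in enamel transcripts 1 of each. A further 1 osteoclast marker call came with quantile normalization or without the library labelled *Tgfbr2cko* 55. Of the T, B and NK cell list 0 of 8, and of the dendritic cell list 0 of 7, were among the genes analysed here. Of the neutrophil list 1 of 9 was measured, *S100a8*, at 3 to 77 reads, which was called lower (-1.75, limma-trend adjusted p = 0.46) and which was singled out after its values were seen. This call was lost without control library 49 or 51, without mutant library 53 or 54, without the library labelled *Tgfbr2cko* 55 and relative to *Csf1r*, and the difference ran from -2.53 to -1.25. *Kit* was the 1 mast cell marker of 7 measured, at -0.11.

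Markers of the surrounding tissue were described in the same way, and their counts are to be read beside the 2.12% of all genes called higher and 3.65% called lower. Endothelial markers (7 of 7 measured) had a median of -0.28 with 1 lower, *Tek*, which encodes the angiopoietin receptor (-0.64, limma-trend adjusted p = 0.124). That count was 0 without control library 50 and relative to *Csf1r*, and 2 without the 3 libraries highest in enamel transcripts. Odontoblast markers (5 of 5) had a median of -0.71 with 2 lower, the intermediate filament gene *Nes* (-0.81) and the osteocalcin gene *Bglap* (-0.72). That count was 1 without control library 49 or 52, without the library labelled *Tgfbr2cko* 56, without the 3 libraries highest in enamel transcripts and with library weights, and 0 relative to *Csf1r*. The median was -0.47 without control library 52, -0.45 with library weights and -0.44 relative to *Csf1r*. *Bglap* had an unadjusted p under 0.05 in 13 of 19 alternatives. Enamel organ markers (6 of 6, 3555 to 22423 CPM against 3874 to 194542 CPM) had a median of 1.30, or 0.38 without the library labelled *Tgfbr2cko* 56, with 0 calls in limma-trend and 0 at an unadjusted p under 0.05. With libraries of the same title number averaged, 5 of the 6 were called higher, without library 53 or 54 3 were, and with library weights or relative to *Csf1r* 2 were. Erythroid markers (5 of 6, 655 to 1496 CPM against 566 to 2541 CPM) had a median of 0.08 with 0 calls in limma-trend and 0 at an unadjusted p under 0.05. The median was -0.51 with 1 gene lower without the library labelled *Tgfbr2cko* 56, -0.43 with 1 lower under the enamel covariate, and -0.31 with 2 lower without the 3 libraries highest in enamel transcripts. Of the Schwann cell markers 2 of 7 were measured, with 0 calls in limma-trend and 1 unadjusted p under 0.05 (*Mbp*, 0.57). With library weights or relative to *Csf1r*, among others, 1 of them was called higher.

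The genes whose pattern over the 8 libraries lay nearest to *P2ry12* were found by the root mean square (RMS) difference of the centred log2 values, among 12146 genes. Among the 5 nearest were *Crybb1* (0.25 log2 units), *Slpi* (0.36), *Susd3* (0.45) and *Arl11* (0.46). *Crybb1*, a crystallin gene that is also a marker of developing microglia, had 17, 21, 16 and 10 reads in the controls, against 54, 64, 60 and 55 in the mutants, so its log2 values carry a large counting error. The same holds for *Arl11*, with 11 to 17 reads in the controls and 31 to 76 in the mutants. The secreted protease inhibitor *Slpi* stood at 2.80 ± 0.42 log2 CPM in the controls, against 4.65 ± 0.53 (SD, n = 4 each). *Trem2* ranked 7th (0.47), *Gpr183* 9th (0.52), *Selplg* 13th (0.54), *Ctss* 22nd (0.60), *P2ry13* 23rd (0.60) and *Gpr34* 31st (0.64). Among the other members *Cx3cr1* was next, at rank 831, and *Mrc1* was last, at rank 11857. Genes with a difference of like size come first by this measure, so the ranks describe the contrast from which *P2ry12* was picked.

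**Figure D5:**
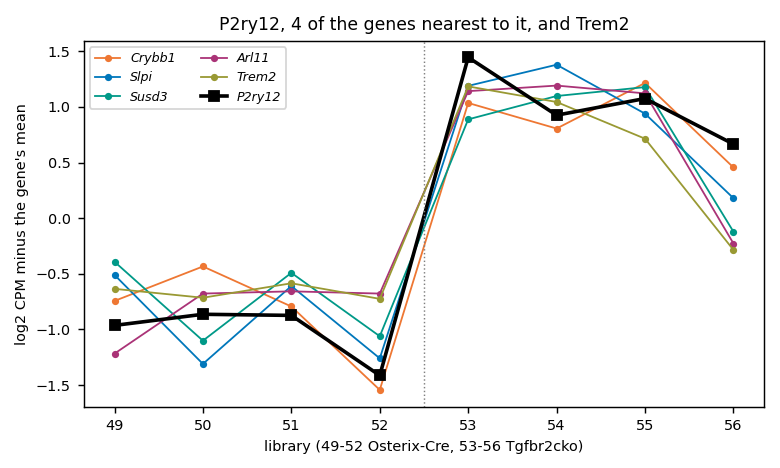
Log2 CPM minus the mean of each gene (y axis) in the 8 libraries (x axis, 49 to 52 Osterix-Cre, 53 to 56 Tgfbr2cko) for P2ry12, 4 of the genes nearest to it and Trem2. All 6 lines lie below 0 in every control library, and in the library labelled Tgfbr2cko 56 Susd3, Arl11 and Trem2 fall back below 0 while P2ry12, Crybb1 and Slpi stay above it.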

How the data were processed

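Pulp RNA (RIN over 7 per the methods) was preamplified from a low input with a SMART-seq HT kit and sequenced. The authors trimmed reads with fastp 0.21.0, aligned them with HISAT2 2.1.0 to GRCm38.p5 and counted them with featureCounts (Subread 2.0.1) on GENCODE M14, per the methods and the submitters' processing notes. They filtered genes with the CLEAR workflow and deposited voom values, that is log2 CPM from counts plus 0.5. Strandedness is not given in the sources used here, so reads of overlapping genes on opposite strands cannot be told apart. All 97184 values returned whole reads (tolerance 0.01). The floor of 3 reads covers counting error only, since reads without molecular identifiers are not independent molecules, while the 95% intervals of limma rest on the spread between libraries.

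Genotypes were compared on the deposited log2 values with limma 3.58.1 in R 4.3.3, with a trend of the variance on intensity (limma-trend, two-sided) on all 8 libraries, adjusted over 12148 genes by the Benjamini-Hochberg method. The fit was tested on simulated data. Exact permutation tests were two-sided. Some libraries of 1 genotype share a title number that the sources do not explain, and nothing says that the libraries came from separate animals or litters, so p values measure the spread between these samples. Symbols, positions and exon lengths came from GENCODE M21, for 12144 identifiers. The members, the gene lists and the tests were chosen with earlier results of these data known, and the lists are not independent evidence. Named genes are the 10 members, the 30 list genes called altered with the lowest p of 31, the 5 genes nearest to *P2ry12* among those with at least 50 reads in all, *Tgfbr2*, and single further list genes, chosen after their values were seen. Alternatives were limma without the trend, library weights, voom weights on the recovered reads, quantile normalization, median centring, a prior count of 2, a filter that keeps genes averaging at least 3 on the log2 scale, libraries of 1 genotype and title number averaged, an enamel matrix covariate, each library left out in turn, and calls at an adjusted p under 0.05. The scaling to *Csf1r* and the fit without libraries 49, 55 and 56, which have over 2% of reads on *Amelx* and *Ambn*, were added after the data were seen. Some genes that this rule takes are not reported here. Protein sequences were not used here. Python 3.11.15 and matplotlib 3.10.9 made the figures.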

Additional observations from a re-analysis of the deposited data

Results flagged for a closer look

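In 2 of the 80 groups of 4 libraries that were checked, 1 library lay far from the other 3, where chance alone gives about 1 in 20. The endothelial receptor gene *Tek* stood at 5.41 in control library 50, against 4.89 to 4.96 in the other controls, a gap of 0.87 of the group's range. The MHC class II gene *H2-Ab1* stood at 4.84 in mutant library 54, inside the control range, against 3.18 to 3.37 in the other mutants, a gap of 0.89 of the range. Without library 54 the antigen presentation list had 5 genes lower instead of 4. In none of the 10 macrophage genes did a library lie this far from its group.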

How the results depend on the processing

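Of the 9 macrophage genes other than *P2ry12*, *Trem2* was called higher under all 19 alternatives and at an adjusted p under 0.05. A second gene, *Cx3cr1* (0.66), joined it, for a count of 2, without the 3 libraries highest in enamel transcripts. The count called lower was 2. It was 1 without the intensity trend, with library weights, with the enamel matrix covariate, relative to *Csf1r* and without the 3 libraries highest in enamel transcripts, and 0 at an adjusted p of limma under 0.05. With each library left out it ran from 1 to 3, and was 1 without control libraries 49, 50 or 51 or the libraries labelled *Tgfbr2cko* 55 or 56. *Mrc1* had an unadjusted p under 0.05 in all 19 alternatives, and *Cd68* in 10. In the wider macrophage list the count called higher was 2. It was 1 with the enamel matrix covariate and without the 3 libraries, 4 relative to *Csf1r*, 0 at an adjusted p under 0.05, and 1 to 3 with each library left out. The count called lower was 7, then 4 without the 3 libraries, 2 at an adjusted p under 0.05, and 5 to 12 with each library left out, the 12 without library 53. The cause of these shifts was not tested. Near-zero differences changed sign. That of *Tyrobp* was 0.01 relative to *Csf1r* and 0.14 without the 3 libraries, and that of *C1qa* was 0.06 with the covariate, 0.03 without the library labelled *Tgfbr2cko* 56 (-0.34 to 0.03 with each library left out), and 0.11 both relative to *Csf1r* and without the 3 libraries. The count at an adjusted p under 0.05 over all genes was 115, with 258 under library weights and 65 to 165 with each library left out. The library labelled *Tgfbr2cko* 56 took a weight of 0.349, against 0.76 to 1.9 in the others. The members had 70 reads or more in every library, while *Crybb1*, *Arl11* and *S100a8* rest on few reads. The order of the members by level per length was the same with the longest transcript as the length. No paired analysis was possible because the genotypes share only 1 title number, and a block on it would compare library 51 alone with 2 mutants.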
